A study of Arabidopsis thaliana with 4 samples.

Results

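The genes described here encode small secreted peptides of 4 families, measured in shoots of Arabidopsis thaliana plants overexpressing the transcription factor bHLH122 and in shoots of wild type. They were chosen by name: a probe set had to carry a single nuclear gene whose symbol starts with CLE, RALFL, LCR, SCRL, IDL or EPFL and a number, or with PDF1., PDF2. or PDF3., and PDF1.2, which is also called PDF1.2A, was left out. The rule gave 29 genes among the 22746 probe sets tested, namely 6 CLE, 11 RALFL, 8 LCR and 4 PDF genes, each with 1 probe set. No SCRL, IDL or EPFL symbol is the single gene of a probe set in the annotation used, and probe sets with several genes were not searched. Those families are not analysed here.

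Each group had 2 Affymetrix arrays of total RNA, all in the Col-0 background. The overexpressor plants differ from wild type by overexpression of bHLH122, and the labels give wild type no treatment. Seeds had 96 h of stratification, then 1 week on medium and 2 weeks in soil. The promoter that drives bHLH122 is not given in the sources used here. The source labels call the overexpressor arrays separate lines, but the number 18 stands in the title of each, and they were handled as 1 group. The protocol counts wild type as a single line, and no label ties its arrays to different plants, so p-values measure the spread between these arrays, which may be technical. No probe set is paired with bHLH122 in the annotation, so the level of the overexpressed gene is not analysed here.

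Plant peptide signals are made as longer precursors with a secretion signal and are cut to their active form outside or on the way out of the cell. CLE peptides, named after CLAVATA3, bind leucine-rich repeat receptor kinases and set the balance between stem cells and differentiation in meristems and in the vascular cambium. RALF peptides make the space around the cell more alkaline and bind receptor kinases of the FERONIA family, which sense growth and the state of the cell wall. Plant defensins, the PDF genes, are cysteine-rich peptides known mainly for acting against fungi. The LCR genes, for low-molecular-weight cysteine-rich, overlap with them in naming: in the gene table LCR66, LCR67, LCR68, LCR69 and LCR72 are also PDF2.4, PDF1.1, PDF2.3, PDF2.2 and PDF2.6. In turn PDF1.4, PDF2.1 and PDF2.5 are also LCR78, LCR70 and LCR74. The split into LCR and PDF genes used here therefore follows the symbol in the annotation.

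Arrays of a group correlated across probe sets with r = 0.996 to 0.997, and arrays of different groups with r = 0.980 to 0.981. These describe the arrays, since probe sets are no replicates. Of the green tissue markers, 4 were the single gene of a probe set in the annotation used (LHCB4.1, PRK, RCA and SBPASE). Their log2 signal was between 11.89 and 13.99 on all arrays. PRK (0.69), RCA (0.34) and SBPASE (0.44) rose on the log2 scale, as did the stomatal lineage gene SPCH (0.56), and the part of tissue makeup in the results was not tested. The root markers EXPA7 and EXPA18 were between 3.43 and 4.58, and the flower and pollen markers AGL104, AGL30, AGL66 and AMS between 3.02 and 4.01. The lower quartile of all probe sets was 3.46 to 3.54 by array. Signals are the log2 of the deposited intensity. No detection calls were used, and probes bind unequally, so a signal does not rank 1 gene's transcript level against another's.

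Members of all 4 families fell in the overexpressors, and no member rose. Of the 29 genes 14 fell, 4 each of the CLE, RALFL and LCR genes and 2 of the PDF genes, by limma with Benjamini-Hochberg adjusted p under 0.05 over all probe sets. That is 48.3% of the members, against 11.8% of all probe sets that were called lower and 12.2% that were called higher. Rises were rare among short genes. Of the 1756 nuclear genes up to 1000 bp, 14.2% fell and 0.683% rose. Of the 21 members among them 8 fell (38.1%) and none rose. The falls were mostly modest: the median log2 fold change of the 29 genes was -0.344, against -0.0158 over all probe sets. In 3 genes, LCR66, PDF1.2b and PDF1.4, the fall was at least 2-fold with the groups apart (10.3% of the members, against 1.81% of all probe sets). RNA came from whole shoots, so fewer cells of a type and less RNA per cell cannot be told apart.

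Both overexpressor arrays lay below both wild-type arrays for 19 of the 29 genes, against 32.1% of all probe sets. The reverse order was seen for RALFL27, LCR72 and LCR80, against 29.1% of all probe sets, and the other 7 genes overlapped between groups. The median signal of the 29 genes was 3.89 and 3.83 in the overexpressors against 4.70 and 4.51 in wild type. The middle gene was CLE21 on the first overexpressor array, RALFL26 on the second, and PDF1.4 on both wild-type arrays. That gap thus compares different genes, and the median log2 fold change was -0.344.

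**Figure D1:**
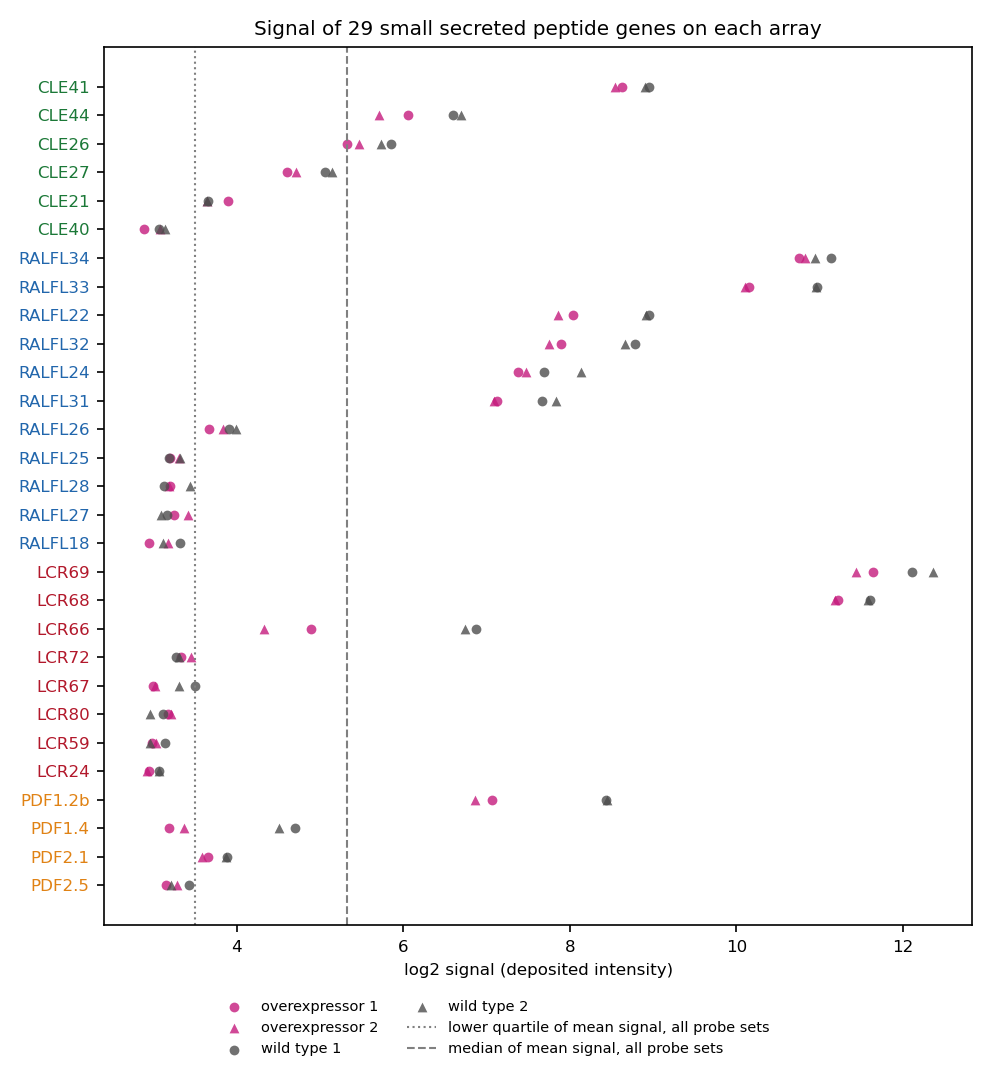
Log2 signal of each of the 29 genes (rows, coloured by family) on the 2 overexpressor and 2 wild-type arrays, with the lower quartile and the median of mean signal over all probe sets as vertical lines. For the 13 genes with a mean above the median line, both overexpressor points lie left of both wild-type points. The same order was seen for 4573 of all 11373 probe sets above that line.

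Calls differed with signal level. Of the 13 genes above the median of mean signal over all probe sets (5.32), 11 fell, against 18.8% of all probe sets above it. The others, RALFL24 and RALFL34, also had both overexpressor arrays below both wild-type arrays. That order was seen for 4573 of all 11373 probe sets above the median, and for 249 of the 339 nuclear genes up to 1000 bp above it. Of the 16 genes at or below that median CLE27, LCR67 and PDF1.4 fell, which is 18.8% of them, against 4.77% of all probe sets there. In the lowest quartile of mean signal lay 11 members, of which LCR67 fell (9.09%), against 0.879% of all probe sets in that quartile.

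Of the 6 CLE genes 4 fell (66.7%, against 11.8% of all probe sets) and none rose, with a family median of -0.37. The 3 above the median signal all fell, against 18.8% of all probe sets above it. With the length trend removed 1 of the 6 passed. CLE44 and CLE41 encode the same signal, TDIF, which is made in phloem and keeps dividing cambium cells from becoming xylem through the receptor kinase PXY. CLE44 (AT4G13195) had log2 signals of 6.05 and 5.71 in the overexpressors and 6.59 and 6.69 in wild type. It was the CLE gene with the largest change, -0.76 (SE 0.14, limma adjusted p = 0.0118), which is 1.69-fold lower. Its lowest wild-type array was 0.54 above its highest overexpressor array, more than the 0.346 between the overexpressor arrays.

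CLE41 (AT3G24770) read 8.63 and 8.54 in the overexpressors and 8.96 and 8.90 in wild type. The groups were apart, but the log2 fold change of -0.34 (SE 0.10) passed narrowly, with limma adjusted p = 0.0489. Both TDIF genes were thus lower on each overexpressor array. CLE26, whose peptide is known from root phloem formation, had 5.32 and 5.47 against 5.85 and 5.74 in wild type, a log2 fold change of -0.40 (SE 0.11). CLE27 had 4.61 and 4.71 against 5.06 and 5.15, a log2 fold change of -0.45 (SE 0.10).

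The remaining CLE genes sat lower on the scale and their groups overlapped. CLE21 read 3.89 and 3.64 in the overexpressors and 3.66 and 3.65 in wild type, with a log2 fold change of 0.11 (95% confidence interval -0.17 to 0.40). CLE40, known from control of root stem cells, read 2.88 and 3.08 against 3.07 and 3.14, with -0.12 (-0.39 to 0.14). CLE41, CLE26 and CLE27 lost their calls when any 1 of the 4 arrays was left out, with limma adjusted p of 0.0557 to 0.201. CLE44 lost it only without wild-type replicate 2 (adjusted p = 0.0547, log2 fold change -0.71). The gene table has AT4G13190 overlapping CLE44, and its own probe set had 0.23 and did not pass.

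The RALFL genes divided into 6 above the median signal, of which 4 were called lower, and 5 at the low end without a call. Among all probe sets 18.8% of those above the median signal were called lower, and 4.77% of those at or below it. RALFL22, RALFL32, RALFL33 and RALFL31 fell and none rose. RALFL22 (AT3G05490) encodes a peptide that binds cell-wall LRX proteins and FERONIA. Its signals were 8.04 and 7.86 in the overexpressors and 8.96 and 8.91 in wild type, a log2 fold change of -0.98 (SE 0.11, limma adjusted p = 0.00265), or 1.97-fold lower. This was the largest change of the family, and its groups were 0.868 apart.

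RALFL33 (AT4G15800), whose peptide is known to act through FERONIA on immune receptor complexes, had signal in the highest quartile. It read 10.15 and 10.10 in the overexpressors and 10.96 and 10.95 in wild type. The arrays of a group differed by no more than 0.0511, and the log2 fold change was -0.83 (SE 0.09, limma adjusted p = 0.00293). The long non-coding RNA gene AT4G06335 overlaps RALFL33 in the gene table and has no probe set named for it. Its part in the RALFL33 signal was not tested. RALFL32 (AT4G14010) read 7.89 and 7.76 against 8.79 and 8.66, a log2 fold change of -0.90 (SE 0.11). The interval of AT4G14000 overlaps that of RALFL32 in the gene table, which gives no strand, and the probe set of AT4G14000 also fell (log2 fold change -0.42, adjusted p = 0.0354). Whether that gene's RNA contributes to the RALFL32 signal was not tested.

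RALFL31 read 7.12 and 7.09 in the overexpressors and 7.67 and 7.83 in wild type, a log2 fold change of -0.64 (SE 0.10, limma adjusted p = 0.00825). All 4 calls held when any 1 array was left out, with adjusted p no higher than 0.0393. RALFL24 had 7.38 and 7.47 against 7.69 and 8.13, and its wild-type arrays stood 0.442 apart. Its log2 fold change of -0.49 (95% confidence interval -0.87 to -0.10) did not pass over all probe sets (limma adjusted p = 0.0734), but did without wild-type replicate 1 (log2 fold change -0.71, adjusted p = 0.0255).

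RALFL34, the peptide of which binds the receptor kinase THESEUS1, had 10.75 and 10.83 in the overexpressors and 11.14 and 10.94 in wild type. The groups did not overlap, but the log2 fold change of -0.25 (-0.52 to 0.02) did not pass. It passed only in the fit with an intensity trend (limma adjusted p = 0.0259). RALFL18, RALFL25, RALFL26, RALFL27 and RALFL28 had signals between 2.95 and 3.99 on all arrays, and their log2 fold changes ran from -0.20 (RALFL26) to 0.21 (RALFL27). RALFL25 and RALFL26, which are direct neighbours among protein-coding genes, had no call.

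No receptor gene of the RALF peptides that could be matched by name passed the test. Of 25 names listed for receptors and partners 4 were paired with a probe set in the annotation used. Their log2 fold changes lay between -0.06 and -0.03. Of the probe sets tested 8730 have no gene named here and 503 name several and were not searched. The other listed genes may thus still be on the array. FER, the gene of FERONIA, read 8.86 and 8.75 in the overexpressors and 8.84 and 8.86 in wild type, with a log2 fold change of -0.04 (95% confidence interval -0.28 to 0.20). THE1, the gene of THESEUS1, read 6.74 and 6.62 against 6.74 and 6.66, with -0.03 (-0.27 to 0.22). ANX1 and ANX2, known from pollen tubes, lay between 3.05 and 3.35. The intervals of FER and THE1 lie above the log2 fold changes of RALFL22, RALFL32, RALFL33 and RALFL31, which lie between -0.98 and -0.64. The receptor genes are longer, at 3235 to 3889 bp, than any of the 29 peptide genes.

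The defensin-like genes held the largest falls. Of the 12 LCR and PDF genes 6 fell (50%) and none rose, with a median of -0.325. Of the 17 CLE and RALFL genes 8 fell (47.1%), with a median of -0.344. Among all probe sets 11.8% were called lower. With the length trend removed the shares were 25% and 23.5%, against 7.61% of nuclear genes. LCR66 (AT1G61070, PDF2.4) read 4.89 and 4.33 in the overexpressors and 6.87 and 6.74 in wild type. The overexpressor arrays differed by 0.564, yet the groups were 1.85 apart. The log2 fold change was -2.20 (SE 0.19, limma adjusted p = 0.00139), which is 4.59-fold lower.

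PDF1.2b (AT2G26020) belongs to the PDF1.2 genes, used as markers of the jasmonate and ethylene response. It read 7.07 and 6.86 in the overexpressors and 8.44 and 8.45 in wild type, a log2 fold change of -1.48 (SE 0.11, limma adjusted p = 9.12e-04). The name of its probe set ends in x_at, by which the array maker marks probes that may also bind other transcripts. The related gene PDF1.2, which was left out by the rule, read 6.74 and 6.57 against 8.22 and 8.06, a log2 fold change of -1.49. How far the PDF1.2b signal comes from PDF1.2 was not tested.

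PDF1.4 (AT1G19610) had 3.19 and 3.37 in the overexpressors and 4.70 and 4.51 in wild type. Its overexpressor arrays thus lay below the lower quartile of those arrays and its wild-type arrays above theirs. The log2 fold change was -1.32 (SE 0.12, limma adjusted p = 0.00153), or 2.50-fold. With a group so near the low end the size of the change is uncertain, and it was -0.65 with log2 of signal plus 16. The calls of LCR66, PDF1.2b and PDF1.4 held when any 1 array was left out, with adjusted p no higher than 0.0101.

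LCR69, LCR68, PDF2.1 and LCR72 lie close together in the gene table, with 1 protein-coding gene between LCR69 and PDF2.1 and none between the others. Their behaviour differed. LCR69 (AT2G02100, PDF2.2) read 11.64 and 11.44 in the overexpressors and 12.11 and 12.35 in wild type, a log2 fold change of -0.70 (SE 0.13, limma adjusted p = 0.0131). LCR68 (AT2G02130, PDF2.3) read 11.22 and 11.18 against 11.61 and 11.58, a log2 fold change of -0.39 (SE 0.09, adjusted p = 0.0282).

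PDF2.1 read 3.65 and 3.59 against 3.88 and 3.88, with a log2 fold change of -0.26 (-0.49 to -0.03) that did not pass. LCR72 read 3.33 and 3.45 against 3.27 and 3.30, with 0.10 (-0.14 to 0.34). Both genes of the cluster with signal in the highest quartile fell, and both genes near the low end had no call. LCR69 did not pass without wild-type replicate 2 (adjusted p = 0.0561, log2 fold change -0.57), and LCR68 did not when any 1 array was left out (adjusted p 0.0846 to 0.114).

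LCR67 (PDF1.1) was the 1 gene of the lowest quartile that passed. It read 3.00 and 3.02 in the overexpressors and 3.50 and 3.30 in wild type, a log2 fold change of -0.39 (SE 0.11, limma adjusted p = 0.0450) between groups that all lie at or below the lower quartile of their arrays. The call was lost when any 1 array was left out (adjusted p 0.0563 to 0.174). LCR24, LCR59, LCR80 and PDF2.5 had signals between 2.92 and 3.43 on all arrays, with log2 fold changes from -0.13 (LCR24) to 0.16 (LCR80) and no call.

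**Figure D2:**
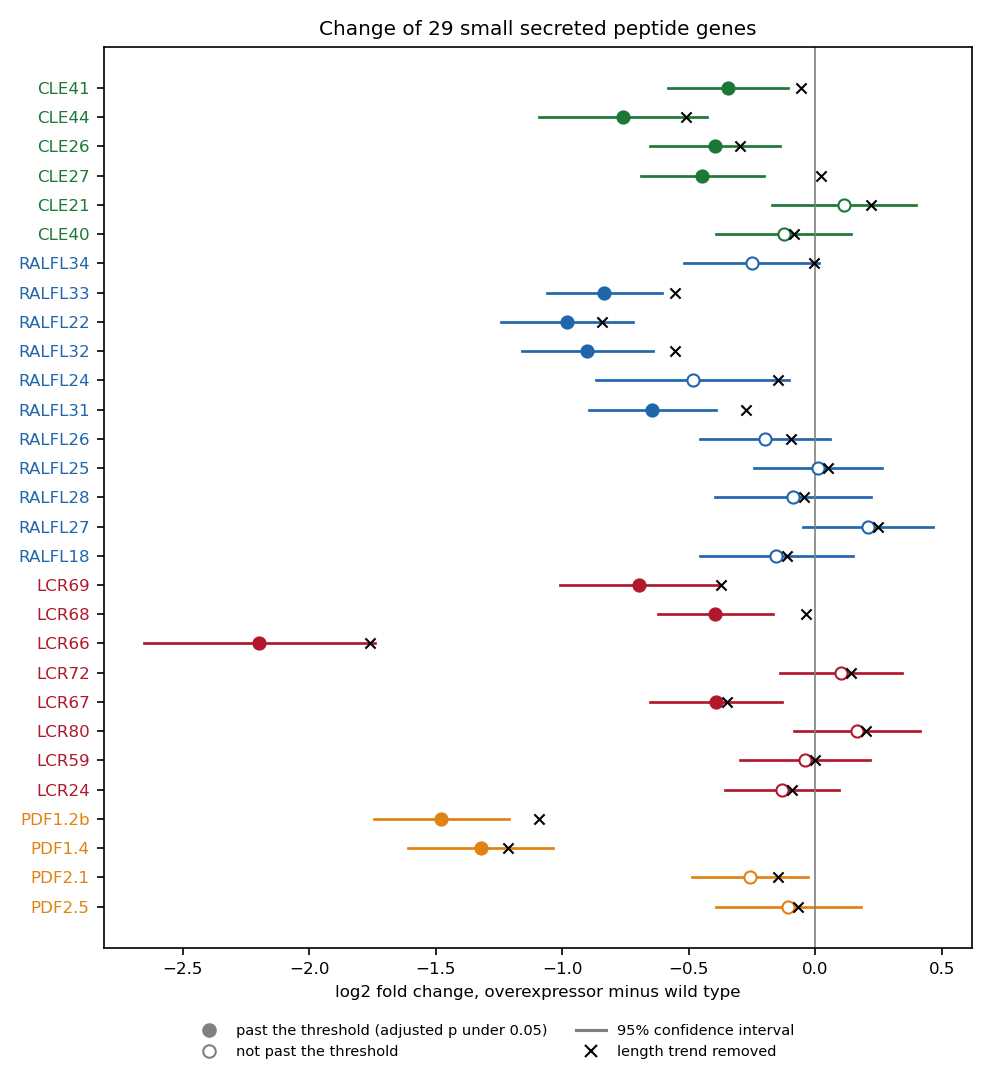
Log2 fold change (overexpressor minus wild type) of each of the 29 genes with its 95% confidence interval, filled where adjusted p was under 0.05, and crosses for the value with the gene length trend removed. LCR66 at -2.20 lies furthest left, no filled point lies right of 0, and the crosses lie nearer to 0 than the points for all 14 genes that fell.

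All 29 members are shorter than the median nuclear gene, and among nuclear genes above the median signal shorter genes were lower in the overexpressors. The 29 genes span 459 to 2051 bp with introns (median 839), against a median of 2118 bp for nuclear genes with a length. Over the 5949 nuclear genes above the median signal, log2 fold change correlated with log2 length across genes with r = 0.47 and rho = 0.48. Among the 13 members above that median, r was 0.34 and rho 0.24. Over all 29 members the sign was opposite, with r = -0.195 and rho = -0.296. Points share arrays, and genes are not independent replicates.

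Counts beside genes of like length were as follows. Of the 339 nuclear genes up to 1000 bp above the median signal 50.1% fell and 2.65% rose. Of the 6 members among them 5 fell, all but RALFL24. Of the 5610 longer nuclear genes above it 18.8% fell and 16.4% rose. Of the 7 members among them 6 fell, all but RALFL34. Short length and lower signal moved together here, and the part of length in the falls of single members was not tested.

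With the length trend removed from every array, 7 of the 29 genes passed as lower and none as higher, against 7.61% of nuclear genes called lower in that fit. They were LCR66 (-1.76), PDF1.4 (-1.21), PDF1.2b (-1.09), RALFL22 (-0.84), RALFL32 (-0.55), RALFL33 (-0.55) and CLE44 (-0.51). CLE41, CLE26, CLE27, RALFL31, LCR69, LCR68 and LCR67 no longer passed, with values from -0.37 (LCR69) to 0.02 (CLE27) and limma adjusted p of 0.0766 to 0.920. The median of the 29 genes then was -0.0974. By family 1 of 6 CLE, 3 of 11 RALFL, 1 of 8 LCR and 2 of 4 PDF genes passed. Calls in that fit were more frequent among short genes with higher signal. Of the 339 nuclear genes up to 1000 bp above the median signal, 19.5% were called lower and 16.5% higher. Of the 6 members among them 3 were called lower.

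**Figure D3:**
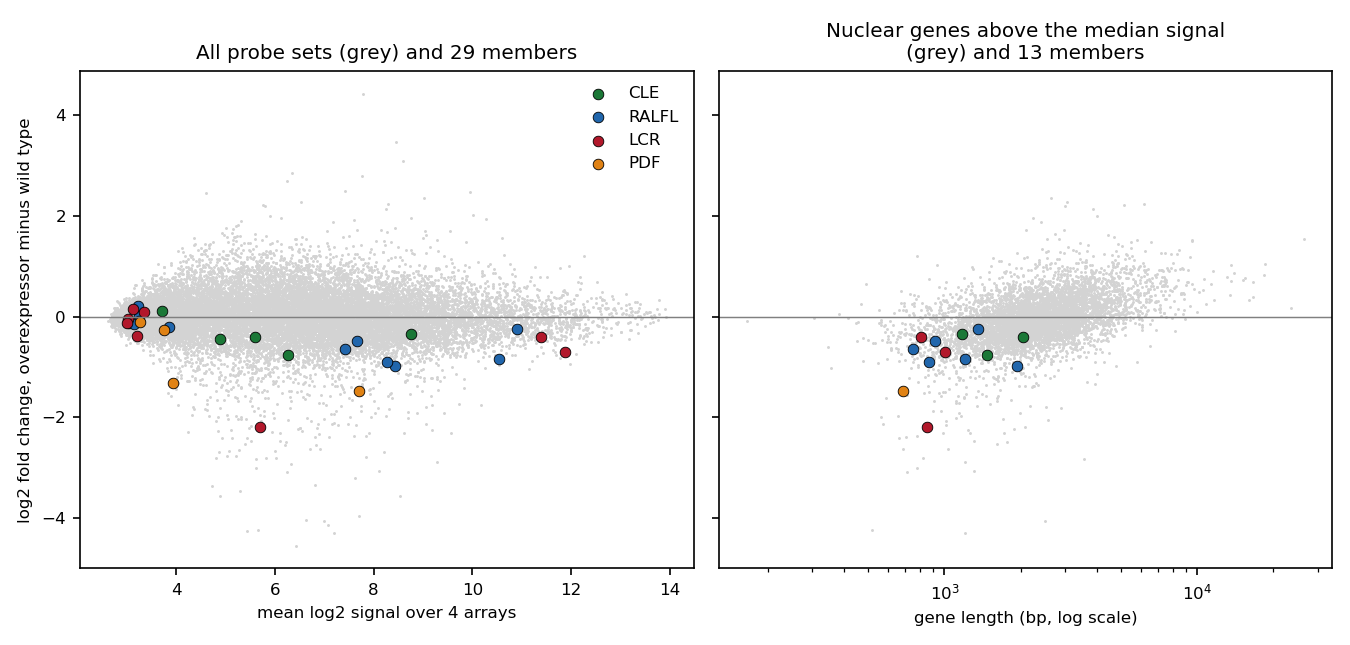
Left, log2 fold change against mean log2 signal for all probe sets (grey) and the 29 genes (coloured by family). Right, log2 fold change against gene length for the 5949 nuclear genes above the median signal (grey) and the 13 members above it; all 13 lie below 0, in the part of the cloud that holds the shorter genes.

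RALFL22, RALFL32, RALFL33, LCR66, PDF1.2b and PDF1.4 passed at adjusted p under 0.05 in each of the alternative fits in which they were tested, 13 fits each and 12 for PDF1.4. Under the stricter rule of at least 2-fold with the groups apart, RALFL22, RALFL32 and RALFL33 were not called, at 1.97-fold, 1.87-fold and 1.78-fold lower. RALFL31 and CLE44 passed in 12 of 13 fits, and LCR69 in 11 of 13. The count of members that fell was 7 to 10 with 1 array left out, lowest without wild-type replicate 2. No member passed as higher in any of these fits.

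**Figure D4:**
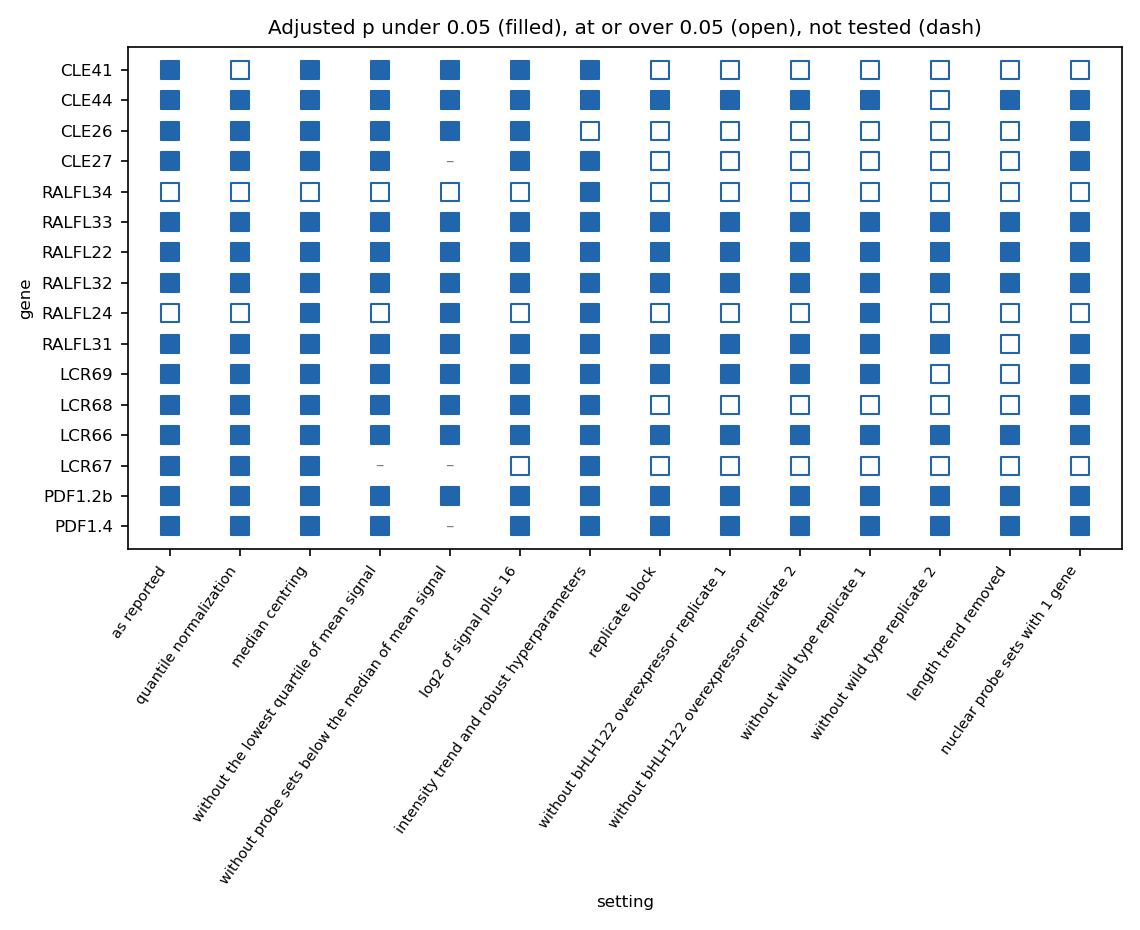
Calls of the 14 genes that fell and of RALFL24 and RALFL34 (rows) under the reported test and 13 alternative settings (columns), filled where adjusted p was under 0.05. Rows for RALFL33, RALFL22, RALFL32, LCR66, PDF1.2b and PDF1.4 are filled wherever tested, and CLE41, CLE26, CLE27, LCR68 and LCR67 are open in all 4 columns that leave out an array.

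Other genes of peptide signalling were read from lists, few of whose names are paired with a probe set in the annotation used. Listed genes without a pairing may still be measured by the 8730 probe sets with no gene named here. The same holds for the 503 with several genes, which were not searched. Of the processing enzymes 8 were matched, the site-1 protease S1P and 7 genes named SBT for subtilase, a class of proteases that cut peptide precursors. SBT1.3 rose, from 8.38 and 8.31 in wild type to 8.87 and 8.78 in the overexpressors (log2 fold change 0.47, SE 0.10, limma adjusted p = 0.0184), and the other 7 did not pass. Of the CLE receptors, partners and targets only CLV3 was matched by name, at 3.03 to 3.22, with -0.06. The receptor kinase gene PSY1R, the 1 gene found under other peptide families, had 0.49 (95% confidence interval 0.13 to 0.84) and did not pass (adjusted p = 0.0601).

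Among other cysteine-rich defence peptides, the thionin gene THI2.1 fell, from 7.03 and 6.95 in wild type to 4.97 and 4.98 in the overexpressors (-2.01). THI2.2 (-0.24) and PR-1-LIKE (0.03) did not pass. EIN3, the ethylene transcription factor upstream of PDF1.2 genes, had 0.07 (-0.16 to 0.30) and did not pass. It was the 1 gene of the jasmonate and ethylene list that was matched by name. No gene of the EPF and IDA receptor lists was matched by name. STOMAGEN, also named EPFL9 and chosen here after its values were seen, promotes stomata; it read 8.92 and 8.75 in the overexpressors and 9.19 and 9.04 in wild type, and its log2 fold change of -0.29 (-0.56 to -0.01) did not pass (limma adjusted p = 0.123).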

How the data were processed

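Total RNA from shoots was measured on 4 one-colour Affymetrix arrays, 2 per group. In the deposited table each probe set has 1 linear intensity on every array. The submitters' processing notes name RMA; neither its version nor the step back to a linear scale is stated there. Log2 was taken here, with no further normalization or filter. Of 22810 probe sets 64 controls were left out. Names came from the platform annotation (1 gene for 13513 of the tested probe sets, several for 503, none used here for 8730), and lengths and other names from the TAIR10.1 gene table, matched by Entrez identifier for 13436 and by symbol for 72; all 29 members matched. Its positions served only for neighbours and overlaps.

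The comparison used lmFit and eBayes of limma 3.58.1 under R 4.3.3, with only the group in the model (two-sided, adjusted over 22746 probe sets, threshold 0.05; 2 residual and 4.24 prior degrees of freedom), after a test on simulated data. The number of arrays limits the precision. Members named singly are those past the threshold, the 3 brightest and the 3 with the smallest p of a family, and whole families of up to 6; the text gives the others too. The members and lists were chosen with earlier results of these data known. The length trend was removed by lowess (span 0.5 on log2 length, in 4 bins of mean signal) over 13421 nuclear probe sets, which also takes out any biological relation to length. Same-numbered arrays did not deviate together (correlation -0.041), so the replicate number was no term. No peptide, promoter or probe sequence was used here.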

Additional observations from a re-analysis of the deposited data

How the results depend on the processing

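The 14 members that fell became 9 with the replicate block, 7 with the length trend removed, 7 at adjusted p under 0.01, 3 at 2-fold or more with the groups apart, and 7 to 10 with 1 array left out. In the last fits the single array left in a group takes its spread from the other group. The block costs a residual degree of freedom, and the replicate numbers do not pair these arrays. For length the cause was not tested. Over all probe sets the 2684 lower calls became 1735 with the block, 1494 to 1661 with 1 array left out, and 1022 among the 13421 nuclear probe sets with the length trend removed. Quantile normalization, median centring, dim probe set filters, log2 of signal plus 16, an intensity trend, and nuclear probe sets alone gave 12 to 15. No setting gave a rise of a member. Lower and higher calls over all 22746 probe sets were 2721 and 2976 after quantile normalization, and 3107 and 2575 with median centring. They were 3156 and 3143 with log2 of signal plus 16, and 3319 and 3288 with an intensity trend. Outside the lowest quartile they were 2931 and 3009 of 17059, and above the median signal 2896 and 2709 of 11373. Nuclear probe sets alone gave 1416 and 1233 of 13426. All probe sets at adjusted p under 0.01 are not counted here. Each member gene has 1 probe set, so taking all of them changed nothing. The median of -0.344 was -0.296 after quantile normalization, -0.377 with median centring, -0.564 for the 18 members outside the lowest quartile, -0.695 for the 13 above the median signal, -0.249 with log2 of signal plus 16, -0.0974 with the length trend removed, and -0.348 to -0.295 with 1 array left out; beyond the filters, which leave fewer genes, the cause was not tested. Single genes gave 272 values on the same side as reported, 36 that no longer passed, 5 that newly passed and 8 of opposite sign. The last were CLE27 (0.0233) with the length trend removed, RALFL25 (-0.0235) with median centring, and 5 genes with no call when 1 array was left out, for which the cause was not tested. These were CLE21 (-0.0121 to 0.239), RALFL25 (-0.0564 to 0.0759), RALFL28 (-0.242 to 0.0660), LCR59 (-0.129 to 0.0486) and PDF2.5 (-0.214 to 0.00193). Without detection calls, how far the 11 members of the lowest quartile lie above background is unknown.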
